A study of Mus musculus with 11 samples.

Results

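Rgs5, Pdgfrb, Acta2 and Tagln are marker genes of mural cells, the pericytes and smooth muscle cells that wrap the vessels of the brain. All probe sets annotated to 1 of these 4 genes were taken, which gave 5 of the 12488 probe sets on the array, a pair for Rgs5 and 1 for each other gene. A probe set was tested where its mean log2 signal over all arrays was at least 4.69 (a signal of 25.8), which 4 of the 5 reached.

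Whole brains of 11 untreated C57BL/6J mice were profiled, 1 array per mouse. The mutants were 5 mice null for β4 (beta4-/-), a subunit of acetylcholine-gated nicotinic ion channels, 3 female and 2 male, aged 7 to 9 weeks. The controls were 6 wild-type littermates, 2 female and 4 male, aged 6 to 9 weeks. All 5 null and 3 of the wild-type mice have numbers starting with the letters B4, and the other 3 wild-type mice have numbers starting with LT. The labels do not say what these letters stand for. The LT mice were all aged 6 weeks and the B4 mice 7 to 9 weeks. Age was also uneven within each sex. Both male null mice were aged 9 weeks, against 6 to 9 weeks in male wild-type mice. Female null mice were aged 7 to 8 weeks and female wild-type mice 6 to 7. The comparison asked which transcripts differ between mutant and control brains. The null allele is present in all cells of the mouse, so the mural cells carry it as the neurons do. No probe set is named for Chrnb4, which encodes β4, so the genotypes rest on the labels alone.

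Pericytes sit on capillaries inside the basement membrane, and smooth muscle cells form the contractile coat of arterioles. Endothelial cells release platelet-derived growth factor B, and mural cells that carry its receptor, the tyrosine kinase encoded by Pdgfrb, are recruited to the growing vessel. Rgs5 encodes a regulator of G protein signalling that speeds the shutdown of Gq and Gi proteins, the proteins through which vasoconstrictors act. Acta2 encodes smooth muscle α-actin and Tagln encodes transgelin, also called SM22, a small actin-binding protein of the same contractile apparatus. Both contractile genes are textbook targets of serum response factor, which binds the CArG box.

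In GRCm38.p6, Rgs5 lies at chr1:169655501-169695813, Acta2 at chr19:34240336-34255585 and Tagln at chr9:45929628-45936058. The 250 bases before the start site are shown for the members found in the RefSeq promoter table of that build, because Acta2 is a target of serum response factor and Rgs5 serves as the comparison. Capitals mark matches to the CArG box with 1 letter changed. The Acta2 window is chr19:34255374-34255623 on the minus strand and the Rgs5 window is chr1:169655251-169655500 on the plus strand. The start site is that of the promoter table. For Rgs5 it is the first base of the gene's range, but for Acta2 it is 34255373, inside the annotated range, so that 212 of the 250 bases shown lie within that range.
Acta2: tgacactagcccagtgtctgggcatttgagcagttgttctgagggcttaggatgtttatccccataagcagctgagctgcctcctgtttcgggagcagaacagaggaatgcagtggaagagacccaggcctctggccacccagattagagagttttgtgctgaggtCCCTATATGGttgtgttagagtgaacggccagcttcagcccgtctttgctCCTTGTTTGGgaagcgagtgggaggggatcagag
Rgs5: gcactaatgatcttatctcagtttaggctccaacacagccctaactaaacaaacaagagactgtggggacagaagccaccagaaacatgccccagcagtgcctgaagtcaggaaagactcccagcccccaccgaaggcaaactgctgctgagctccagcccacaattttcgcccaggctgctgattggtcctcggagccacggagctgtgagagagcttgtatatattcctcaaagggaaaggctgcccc
The search covered both strands. No unchanged CArG box was found in either window, and 1.47% of 32851 promoters hold at least 1. The search that allows 1 changed letter was chosen after this, and it found 2 elements in Acta2, CCCTATATGG and CCTTGTTTGG, whose first bases lie 84 and 34 bases before the start site of the table. At least 2 such elements occur in 2.96% of the promoters, and Rgs5 has 0. The Acta2 promoter is known for CArG elements that depart from the consensus. Its window also holds 3 E-boxes (CANNTG), which 12.2% of promoters reach, against 0 in the Rgs5 window. These matches describe the letters and were not tested as binding sites.

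Both male null arrays stood apart from the other 9. The Gapdh control probe sets gave a 3′ to 5′ signal ratio of 0.798 and 0.859 on the male null arrays, between 2.19 and 3.58 on the female null arrays and between 3.57 and 5.92 on the wild-type arrays. In the male comparison 2433 of 7453 probe sets (32.6%) differed between genotypes at an adjusted p under 0.05 in limma, and in the female comparison 0 did (0.0%; 308 at an unadjusted p under 0.05). The summed signal of the 10 of 13 neuron markers on the array was 15458 to 15515 on the male null arrays, against 11933 to 14301 on the other 9. That of 10 of 11 microglial markers was 1705 to 2002 on the male null arrays, against 1093 to 1495. Of the tested markers, 8 of 10 for neurons and 5 of 7 for microglia had a positive male difference, as did 2993 of all 5699 tested named genes. The neuron markers with a negative one were Snap25 (-0.31) and Thy1 (-0.14). The microglial ones were Csf1r (-0.17) and Tyrobp (-1.02, limma adjusted p = 0.00216). The sums overlapped for astrocyte markers, at 6900 to 7932 against 6320 to 7634. They also overlapped for oligodendrocyte markers, at 6447 to 6925 against 5315 to 8331. Both lists held male calls in both directions. Glul (0.90) was higher and Gja1 (-0.58) lower among astrocyte markers, and Mbp (0.57) and Mag (1.25) were higher and Mobp (-0.63) lower among oligodendrocyte markers. The sum was lower on the male null arrays for 5 of 9 choroid plexus genes, at 700 to 946 against 1018 to 1801. It was also lower for 5 of 8 blood genes, at 2246 to 2253 against 2433 to 6118. Most of each sum was 1 gene, Ttr at 552 to 762 and Hba-a1 at 2116 to 2134 on the male null arrays. Male differences (log2) had both signs in each list. Ttr had -0.94 and Kl -0.66 beside 1.21 for Folr1, and Hba-a1 had -0.84 beside 0.64 for Alas2. The 3′ to 5′ ratio of a control gene is commonly read as a sign of RNA integrity and labelling. Within each sex it separated the null from the wild-type arrays completely. Female wild-type arrays were at 3.81 and 3.91, above the 2.19 to 3.58 of the female null arrays. In neither sex can genotype and this ratio be told apart, although the gap was narrower in females. Differences of the 4 genes are therefore given for all arrays, within each sex and without the male null arrays, which leaves the female comparison.

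None of the 4 genes passed the threshold for a difference between null and wild-type brains once p-values were adjusted over all probe sets. Rgs5 averaged 127 in male null brains, against 57.7 to 69.5 in the other 3 groups, and its difference passed the test within males but not within females. Tagln was the member with the most even genotype difference, higher by 0.69 (log2) in null than in wild-type females and by 0.57 in null than in wild-type males, but without passing the adjusted threshold in either. Acta2 varied least, between 68.8 and 100.8, and Pdgfrb was the most variable and the dimmest of the 4 tested probe sets, between 12.5 and 49.6. In a whole brain, fewer cells of a type and less of its RNA per cell cannot be told apart.

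**Figure D1:**
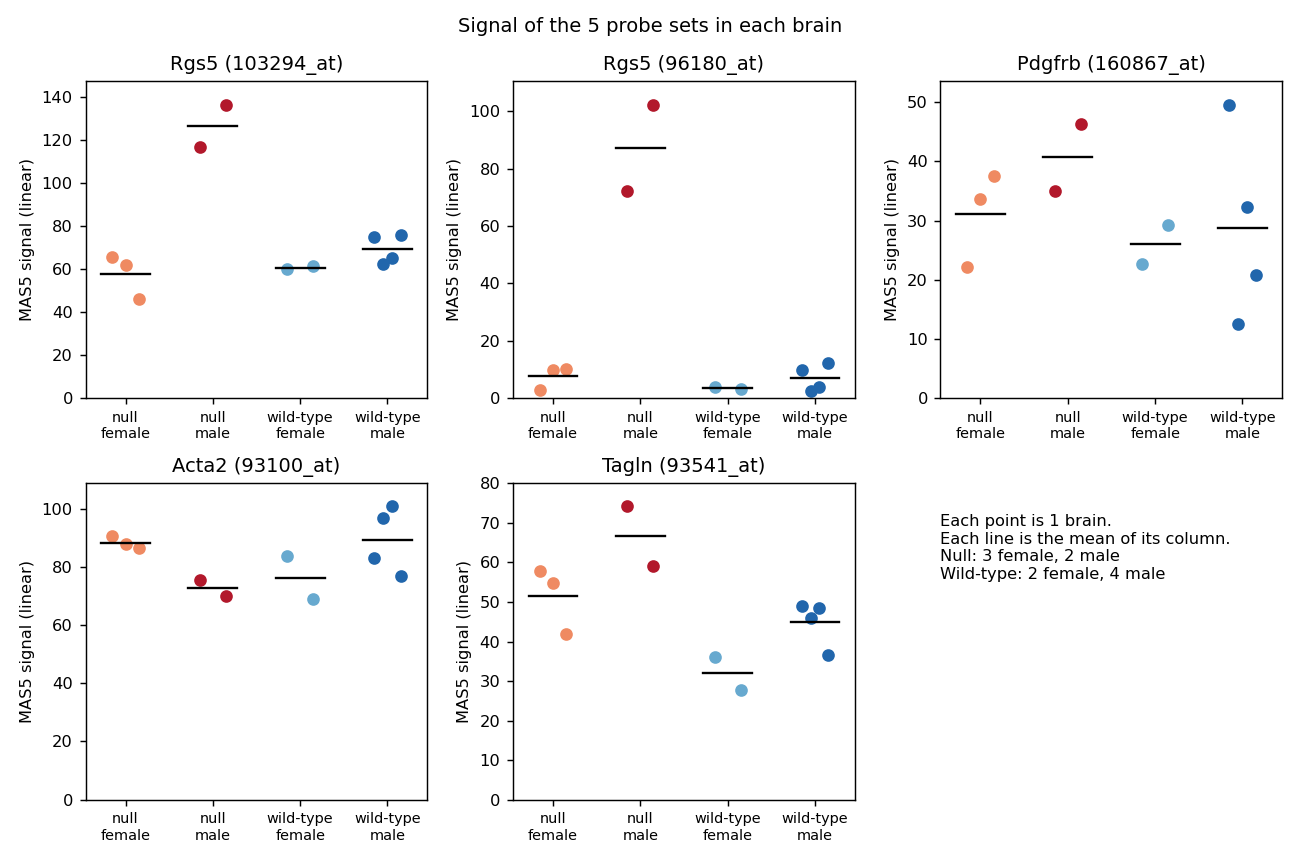
Signal of each probe set (linear MAS5 units, 1 panel per probe set) in each brain. Points are single brains and lines are means of 3 female null, 2 male null, 2 female wild-type and 4 male wild-type brains. Both Rgs5 panels show the 2 male null brains above all others, at 116.7 and 136.5 and at 72.4 and 102.4, while the Acta2 values of null brains (69.9 to 90.6) lie inside the range of wild-type brains (68.8 to 100.8).

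Rgs5 was measured by 2 probe sets. The brighter, 103294_at, gave signals of 65.4, 61.7 and 46.0 in female null and 116.7 and 136.5 in male null brains. In wild-type brains it gave 59.8 and 61.3 in females and 75.0, 62.2, 65.0 and 75.8 in males. Both male null values lay above all other brains, and the female null values spanned those of the wild-type females. The mean was 85.3 ± 39.1 over the 5 null brains and 66.5 ± 7.09 over the 6 wild-type brains (SD). Ordered by group, male null brains stood highest at 127 ± 14.0 (SD, n = 2), and the means of the other 3 groups lay between 57.7 and 69.5. The female null range overlapped both wild-type ranges, that of females (59.8 to 61.3) and that of males (62.2 to 75.8).

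With sex as a covariate, the Rgs5 difference was 0.42 ± 0.20 (log2, SE), with a 95% interval from -0.03 to 0.86 (limma adjusted p = 0.24). In females alone it was -0.09 ± 0.22 (adjusted p = 0.995) and in males alone 0.87 ± 0.21 (adjusted p = 0.00772). Rgs5 was 1 of 1330 of the 7453 probe sets called higher in male null brains (17.8%) and 1 of the 1545 (20.7%) with both male null arrays above the other 9. The call in males was lost without null brain 2 (0.75, adjusted p = 0.0961), and with the Gapdh ratio as a covariate the difference was -0.07 (adjusted p = 0.991). Whether the Gapdh ratio or another property of these 2 arrays has a part in it was not tested.

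The female minus male contrast of the genotype difference was -0.95 ± 0.31 for Rgs5, with an interval from -1.62 to -0.28 and a limma adjusted p of 0.0532, just outside the threshold. Over all probe sets 1187 (15.9%) passed that test. The Rgs5 contrast crossed the threshold under 4 of the alternatives, with adjusted p between 0.0384 and 0.0488, and its adjusted p was 0.944 with the Gapdh ratio as a covariate. Among B4 animals alone the Rgs5 difference in males was 0.89 (adjusted p = 0.0279) and the contrast between the sexes was -0.95 (adjusted p = 0.173).

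The second Rgs5 probe set, 96180_at, was dim and did not reach the filter. It gave 2.8, 9.9 and 10.2 in female null and 72.4 and 102.4 in male null brains. In wild-type brains it gave 3.7 and 3.1 in females and 9.7, 2.4, 3.8 and 12.1 in males. Its male null signals lay above all others, as for 103294_at, and 3 of the other 9 arrays were at or under the floor of 3.1. Fitted without the filter, the difference was 1.004 ± 0.711 in females (adjusted p = 1) and 3.82 ± 0.68 in males (adjusted p = 0.00551). The floor understates the male difference, because the wild-type value of 2.4 was raised to it. In females a null value (2.8) was raised, so that difference is overstated. Both Rgs5 probe sets thus had the same direction in males and differed in size, and without the male null arrays neither difference passed the test (-0.09, adjusted p = 0.999, for 103294_at and 1.004, adjusted p = 1, for 96180_at).

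**Figure D2:**
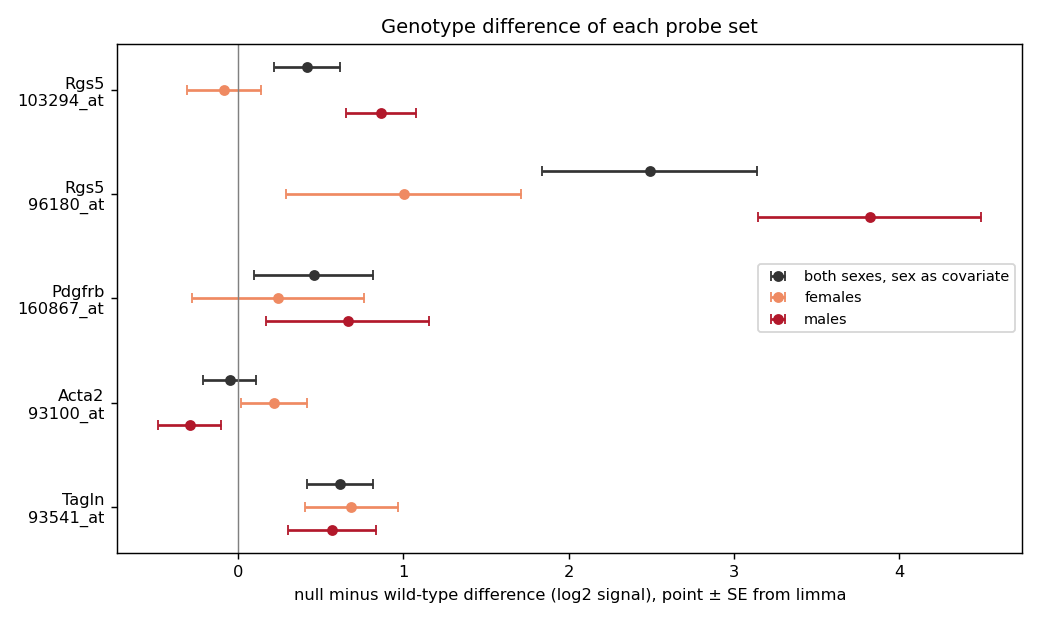
Genotype difference of each probe set (x axis, null minus wild-type, log2 signal) as limma estimate ± SE, for all 11 brains with sex as a covariate, for females and for males. The Rgs5 estimates are farthest apart between the sexes, -0.09 in females and 0.87 in males for 103294_at, while the Tagln estimates lie between 0.57 and 0.69.

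Pdgfrb, the receptor gene, lies at chr18:61045127-61085067 in GRCm38.p6. It gave signals of 22.2, 33.7 and 37.6 in female null and 35.0 and 46.3 in male null brains. In wild-type brains it gave 22.6 and 29.3 in females and 49.6, 12.5, 32.3 and 20.8 in males. The lowest and the highest of all 11 values were both from wild-type males, and the null values lay inside that range. The mean was 35.0 ± 8.66 over the 5 null brains and 27.9 ± 12.7 over the 6 wild-type brains (SD). Ordered by group, male null brains stood highest at 40.6 ± 7.99 and female wild-type brains lowest at 26.0 ± 4.74, and no neighbours in that order differed beyond their spread. The difference was 0.46 ± 0.36 with an interval from -0.30 to 1.23 (limma adjusted p = 0.44), so these arrays allow anything from a small fall to a rise of more than 2 times. Within females it was 0.24 ± 0.52 and within males 0.66 ± 0.49, with adjusted p of 0.995 and 0.331. Among B4 animals alone it was 0.58 (adjusted p = 0.447), and with age as a covariate 0.23 (limma adjusted p = 0.848).

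Acta2, the smooth muscle actin, gave 90.6, 87.9 and 86.5 in female null and 75.4 and 69.9 in male null brains. In wild-type brains it gave 83.7 and 68.8 in females and 83.0, 96.7, 100.8 and 76.9 in males. Female null brains were above both female wild-type brains, and male null brains were below all 4 male wild-type brains. The first pattern was found in 889 of the 7453 probe sets (11.9%) and both together in 199 (2.67%). How many probe sets showed the second pattern was not counted. The mean was 82.1 ± 8.93 over the 5 null brains and 85.0 ± 12.0 over the 6 wild-type brains (SD), and the ranges overlapped. By group the order was male wild-type at 89.3 ± 11.3, female null at 88.3 ± 2.08, female wild-type at 76.2 ± 10.5 and male null at 72.7 ± 3.89, and of these neighbours only female null and female wild-type brains had ranges that did not overlap.

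The Acta2 difference was -0.05 ± 0.16 with an interval from -0.39 to 0.29 (limma adjusted p = 0.874). The contrast between the sexes was 0.51 ± 0.28 (adjusted p = 0.231), from 0.22 ± 0.20 in females and -0.29 ± 0.19 in males (adjusted p of 0.995 and 0.266). Centring each array on its median made the male difference -0.57 (adjusted p = 0.0358), and quantile normalization gave the same value (-0.57, adjusted p = 0.0349). The male null arrays had the highest median signals of the 11, at 58.3 and 56.3. The median male difference over all probe sets was 0.05 as deposited, -0.08 after quantile normalization and -0.23 after centring. The share of male calls that were higher in null was 54.7% as deposited, 44.0% after quantile normalization and 27.6% after centring. Rgs5 kept its male call under both (0.64, adjusted p = 0.032, and 0.58, adjusted p = 0.0488).

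Tagln gave 57.7, 54.8 and 41.8 in female null and 74.2 and 59.1 in male null brains. In wild-type brains it gave 36.2 and 27.7 in females and 49.0, 46.0, 48.5 and 36.5 in males. Of the 5 null brains 4 were above every wild-type brain, a pattern that 286 of the 7453 probe sets showed (3.84%). Within each sex all null brains were above all wild-type brains, and both male null brains were above the other 9, as for Rgs5. Female null brains were above all female wild-type brains in 11.9% of probe sets, male null above all male wild-type brains in 27.1% and male null above the other 9 in 20.7%. The mean was 57.5 ± 11.6 over the 5 null brains and 40.6 ± 8.54 over the 6 wild-type brains (SD). By group the order was male null at 66.7 ± 10.7, female null at 51.4 ± 8.47, male wild-type at 45.0 ± 5.82 and female wild-type at 32.0 ± 6.01. The ranges of female null and male wild-type brains overlapped.

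The Tagln difference was 0.62 ± 0.20, a 1.54-fold higher signal in null brains, with an interval from 0.20 to 1.04. It ranked 454th of 7453 by p (unadjusted p = 0.00677, limma adjusted p = 0.109). Over all probe sets 2 passed the adjusted threshold for genotype (0.0268%), and 1002 were higher in null brains at an unadjusted p under 0.05 (13.4%). Without the male null arrays the Tagln difference was 0.69 (adjusted p = 0.999). There 0 of 7453 probe sets passed (0.0%), and 264 had an unadjusted p under 0.05. The median difference over all probe sets was 0.03 as deposited, -0.04 after quantile normalization and -0.15 after centring, with Tagln at 0.62, 0.435 and 0.444. The Tagln difference was 0.70 with the Gapdh ratio as a covariate (adjusted p = 0.994) and 0.49 among B4 animals alone (adjusted p = 0.22). With age as a covariate it was 0.54 (limma adjusted p = 0.437). The contrast between the sexes was 0.12 ± 0.39 with an interval from -0.72 to 0.96 (adjusted p = 0.873). With array weights, an alternative under which 1741 probe sets passed, Tagln also passed (0.63, adjusted p = 0.0442).

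Tagln lies on the same chromosome as the disrupted gene. Chrnb4 is at chr9:55028154-55048953 in GRCm38.p6, 9.1 Mb and 92 protein-coding genes away. The 10 protein-coding neighbours on each side of Tagln included 6 that were tested, with differences between -0.33 for Zpr1 and 0.24 for Fxyd2, none of them called. The annotated range of the next gene, Pcsk7, overlaps that of Tagln, and its difference was -0.22 (adjusted p = 0.43). For Rgs5, the next protein-coding gene is another member of the RGS family, Rgs4 at chr1:169741477-169747642. Rgs4 gave 184.0 and 170.1 in male null brains, against 3.1 to 35.0 in the other 9. Its mean log2 signal was 4.69 over the 11 arrays and 4.08 over those 9, so it reached the filter through the male null arrays alone and its male difference is given with no test.

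**Figure D3:**
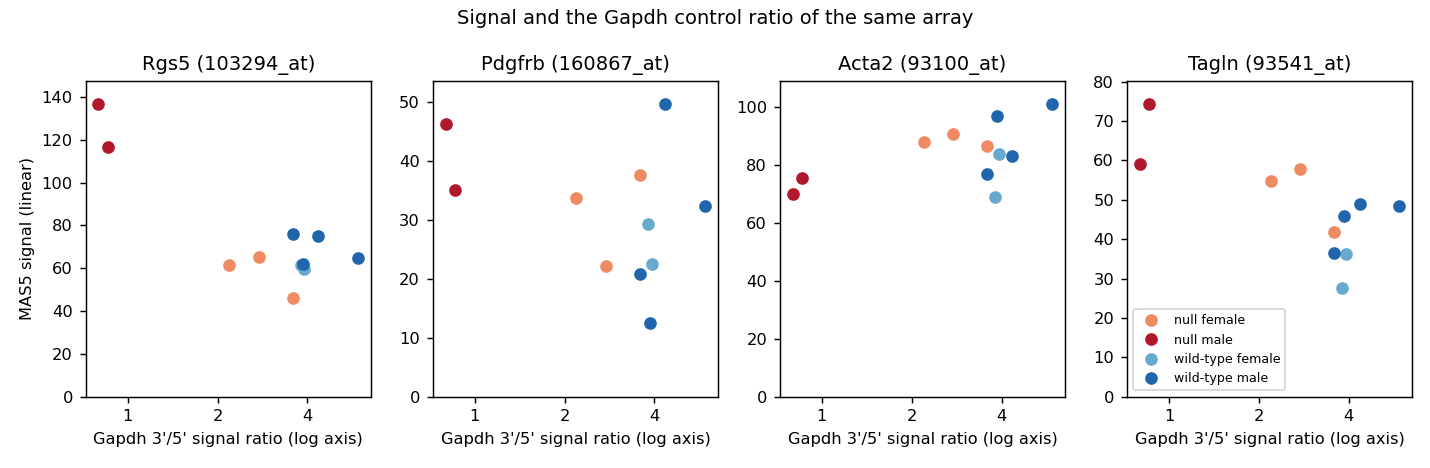
Signal of each gene (y axis, linear MAS5 units) against the Gapdh 3′ to 5′ control ratio of the same array (x axis, log scale), 1 point per brain. The male null arrays lie alone at ratios of 0.798 and 0.859, where Rgs5 is highest and Acta2 is in its lower range; among the other 9 arrays, with ratios from 2.19 to 5.92, Rgs5 stays between 46.0 and 75.8.

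Between the sexes none of the 4 genes passed the adjusted threshold, nor did any other probe set (0 of 7453, 0.0%, in limma; 926 at an unadjusted p under 0.05). Rgs5 averaged 58.8 ± 7.47 in females (SD, n = 5) and 88.5 ± 30.6 in males (SD, n = 6). Its female minus male difference was -0.64 ± 0.20 (unadjusted p = 0.00735, limma adjusted p = 0.303) and became -0.19 (adjusted p = 0.824) without the male null arrays. Tagln averaged 43.6 ± 12.6 in females and 52.2 ± 13.0 in males, a difference of -0.44 (adjusted p = 0.386) that was -0.50 without those arrays. Pdgfrb (-0.18, interval from -0.95 to 0.58) and Acta2 (0.01, interval from -0.33 to 0.36) had intervals on both sides of 0.

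The genes differed in how much they varied from brain to brain. Over the 9 arrays other than the male null ones, the SD of the log2 signal was 0.17 for Acta2, 0.21 for Rgs5, 0.34 for Tagln and 0.58 for Pdgfrb, against a median of 0.27 over all tested probe sets. Acta2 was thus at percentile 14.2 of spread among the tested probe sets and Pdgfrb at percentile 90.6. The mean log2 signal of Pdgfrb was 4.86, close to the filter of 4.69, and that of Acta2 was 6.38. Spread was not compared with that of probe sets of like signal. With all 11 arrays, Rgs5 reached 0.45 and percentile 73.2, and Acta2 had 0.18.

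Of the 6 pairs of genes, Acta2 and Tagln varied together most closely over the 9 arrays. Their log2 signals had a Pearson r of 0.77 (exact permutation p = 0.0162, 0.0972 adjusted over the 6 pairs) and a Spearman rho of 0.60 (exact permutation p = 0.0968, adjusted 0.581). Without the 2 arrays farthest from the Acta2 median, r was 0.57, and it was 0.67 for residuals after genotype and sex. On all 11 arrays r was 0.17, with the male null brains low in Acta2 and high in Tagln. The other 5 pairs had r between -0.19 and 0.12, each with an adjusted exact permutation p of 0.844. Rgs5 and Pdgfrb, both pericyte genes, had r = -0.08, and r was 0.60 without the 2 arrays farthest from the Rgs5 median. The arrays share a scaling step, which ties all signals of an array together.

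**Figure D4:**
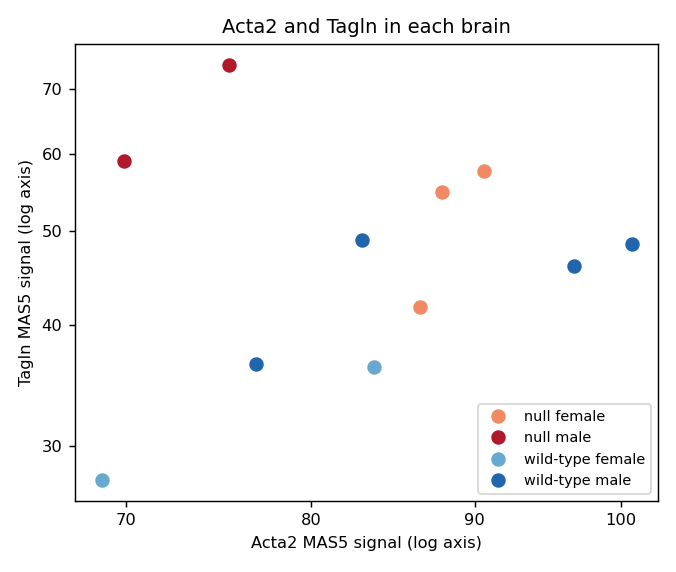
Tagln signal (y axis, log scale) against Acta2 signal (x axis, log scale), 1 point per brain. The 9 arrays other than the male null ones run from low to high in both genes (r = 0.77), and the 2 male null brains lie above them, with Tagln at 74.2 and 59.1 and Acta2 at 75.4 and 69.9.

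The probe sets most alike in pattern over those 9 arrays were found by Pearson r of log2 signal, as a description of 9 values each. For Rgs5 they were Gnas (0.936), Cdkn1c (0.923) and Limch1 (0.919), none of which kept a positive r over 11 arrays (-0.38 to -0.01). For Pdgfrb they were Cckbr (0.978), Actl6a (0.939) and S1pr2 (0.932), with r of 0.73 to 0.90 over 11 arrays. For Acta2 they were Plk3 (0.952), Angptl4 (0.915) and Clip4 (0.909), with r of 0.73 to 0.90 over 11 arrays. For Tagln they were Akr1b8 (0.934), Etfb (0.917) and Saal1 (0.914), with r of 0.80, 0.60 and 0.15 over 11 arrays. Each was picked as the highest of 5699 named genes, so its r is a description only.

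The wider pathways of the 4 genes were read through lists of their partners, each gene through its brightest probe set. Over the 5699 tested named genes the median genotype difference was 0.02. The 4 genes themselves had a median of 0.44, and of 0.23 without the male null arrays. No list member passed the adjusted threshold for genotype. In males, where 32.6% of probe sets passed, every partner list but that of the RGS family held genes called in both directions. Among these lists no median over females or males lay farther from 0 than 0.39 in size, and the male values move with the scaling as given for Acta2.

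Of the 18 genes of PDGF signalling, 15 were on the array and 11 were tested, with a median difference of 0.18 (-0.07 without the male null arrays). The ligand gene Pdgfb, the partner of the Pdgfrb receptor, averaged 43.3 ± 15.2 in null and 41.6 ± 19.5 in wild-type brains (0.29, adjusted p = 0.562). The highest differences were those of Pik3r1 (0.51), a regulatory subunit of PI3 kinase, and Stat3 (0.32). The lowest were those of Pik3ca (-0.61), the catalytic subunit, and Pdgfra (-0.39), the sister receptor of oligodendrocyte precursors. Another tested probe set of Pdgfra had a difference of the opposite sign (0.28, and 0.19 without the male null arrays). In males 3 rose (Pik3r1, Stat3 and Grb2) and 1 fell (Pik3ca, -1.01, adjusted p = 0.00268).

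Of 18 further pericyte genes, 13 were on the array and 6 were tested, with a median of 0.16 (-0.02 without the male null arrays). The potassium channel genes Kcnj8 and Abcc9 and the filament gene Des were under the filter, and Cspg4 had no named probe set. S1pr3, a receptor for sphingosine 1-phosphate, had a difference of 0.55, from 0.24 in females and 0.83 in males (adjusted p = 0.0145). Vtn, which encodes vitronectin, had 0.35, from -0.22 in females and 0.86 in males (adjusted p = 0.00833). Zic1 had -0.34, from -0.02 in females and -0.63 in males (adjusted p = 0.013). Notch3 had -0.23, from -0.02 in females and -0.41 in males (adjusted p = 0.146). Zic1 is also a gene of cerebellar granule neurons. The summed signal of the list ranged from 1838 to 2271 in null and from 1833 to 2633 in wild-type brains. Most of that sum was Zic1, and the whole sum on the male null arrays (1838 to 1867) lay inside the range of the other 9 (1833 to 2633). The other 12 genes, 7 of them under the filter, summed to 455 to 817 in null and 481 to 585 in wild-type brains. Only without Zic1, which was lower in male null brains, were these brains (695 to 817) above the other 9. Of the 6 tested genes 3 had a positive male difference. Over all tested probe sets, 20.7% had both male null arrays above the other 9.

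Of 23 contractile genes of smooth muscle, 17 were on the array and 9 were tested, with a median of -0.08 (-0.18 without the male null arrays). Myh11 and Cnn1, which mark smooth muscle most specifically, were under the filter. Csrp1, a LIM protein that binds actinin, had the highest difference at 0.94 (adjusted p = 0.165). It was -0.42 in females and 2.17 in males (adjusted p = 6.75e-06). Actn1 had -0.52, from 0.12 in females and -1.10 in males (adjusted p = 0.000111). Tpm2, a tropomyosin, had 0.32, from 0.37 in females and 0.27 in males, and Tpm1 had -0.29, from -0.60 in females and -0.01 in males. Of the 9, 4 were higher and 5 lower in null brains.

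Of 26 genes of SRF and TGF-β control, 21 were on the array and 16 were tested, with a median of -0.08 in all brains, -0.07 without the male null arrays and -0.39 in males. Mef2c, a transcription factor also found in neurons, had 0.74, from -0.39 in females and 1.75 in males (adjusted p = 0.000399). Tgfbr3 had 0.64 and Eng -0.69, both co-receptors for TGF-β, and the Notch target Hey1 had -0.66, with adjusted p between 0.0852 and 0.15. In males 3 of the 16 rose and 5 fell, Hey1 (-1.06, adjusted p = 0.000312) and Eng (-0.82, adjusted p = 0.0194) among them. Of 27 genes of contraction signalling, 16 were on the array and 10 were tested, with a median of -0.02 (-0.20 without the male null arrays). Gucy1b1, a subunit of the nitric oxide receptor, had 0.53 (adjusted p = 0.107) and Rock1 0.26. Gna11, whose Gq-class protein Rgs5 can act on, had -0.67 (adjusted p = 0.0852) and Gna12 had -0.63. In males 2 of the 10 rose (Gucy1b1 and Gna13) and 3 fell (Gna11, Rhoa and Gnai2, whose Gi protein is another target of Rgs5).

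**Figure D5:**
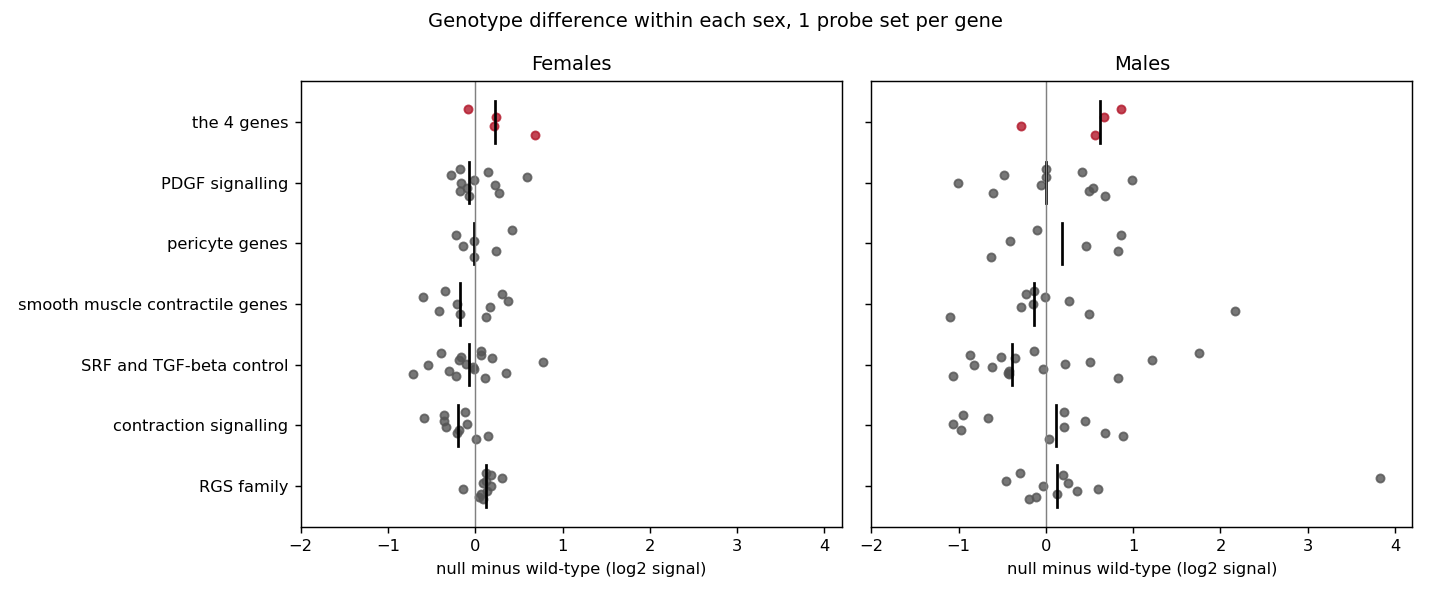
Genotype difference (x axis, null minus wild-type, log2 signal) in females and in males for the 4 genes and the tested members of each list, 1 point per gene, with lines at the medians. In females the points lie between -0.71 and 0.78, and in males they spread from -1.10 for Actn1 to 3.83 for Rgs4.

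In the RGS family 11 of 18 genes were tested, with a median of 0.10 (0.12 without the male null arrays). Rgs4 is among the 11 through its male null signals alone, as given above, and the other 10 had genotype differences between -0.18 for Rgs7 and 0.25 for Rgs14 and Rgs11. None of these 10 passed the limma threshold in males. The male differences were -0.30 for Rgs2, 0.13 for Rgs16 and 0.25 for Rgs8, beside 0.87 for Rgs5.

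Paralogs of the members were set beside them. The transgelin genes Tagln2 and Tagln3, of which Tagln3 is a neuronal form, had differences of 0.37 and 0.41, close to 0 in females (0.05 and 0.06) and called in males (0.67, adjusted p = 0.0225, and 0.72, adjusted p = 0.00919). For Tagln itself the female difference was 0.69. The muscle actins Acta1 (-0.02), Actc1 (0.11) and Actg2 (-0.08) were measured beside Acta2 (-0.05), and without the male null arrays the values were 0.11, 0.36 and 0.17, beside 0.22 for Acta2. Short array probes can bind transcripts of close paralogs such as the actins, and the share of such binding in the Acta2 signal is unknown.

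Markers of other vessel and brain cells were read for comparison. The summed signal of 15 endothelial genes was 1505 to 1688 in null and 1661 to 1915 in wild-type brains, ranges that overlap narrowly, with a list median of -0.24 (-0.13 without the male null arrays). Fibroblast and meningeal genes, which would travel with large surface vessels, summed to 7858 to 10533 in null and 6911 to 11000 in wild-type brains. Most of that sum was Ptgds, which averaged 6541 in null and 5914 in wild-type brains. In males 1 of the 12 tested genes of this list was called higher (Fbln1, 0.96) and 2 lower (Dcn, -0.48, and Igf2, -0.66). No listed marker had a value of 0 in its brightest probe set. Their part in the differences of the 4 genes was not tested.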

How the data were processed

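RNA of whole brain was extracted with TRI Reagent and spin columns and labelled with biotin, per the labels' protocols. The deposited values are MAS5 intensities on a linear scale, 1 per probe set and array, per the submitters' processing notes; version, settings and scanner are not given in the sources used here. Their mean after trimming 2% at each end was 150.08 to 150.1 on each array, so they were used as scaled. Of 12488 probe sets, 66 are controls, 10855 have 1 gene symbol, 396 several and 1237 none; 10839 of those with 1 matched GRCm38.p6. The 4 members and all lists were chosen with earlier results of these data known.

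Intensities were raised to the 10th percentile (3.1), log2 was taken, and probe sets under the 40th percentile of mean log2 (4.69) were not tested, which left 7453. Differences come from limma 3.58.1 in R 4.3.3 (lmFit, eBayes with trend, Benjamini-Hochberg over all tested probe sets, threshold 0.05), with sex or genotype as covariate, or with their interaction, from which the differences within each sex also come. The code was tested on simulated data. Correlations were tested by two-sided exact permutation over 9 arrays. The number of arrays limits the precision. All probe sets of the members are named; of each list, those past the threshold, otherwise the 2 highest and 2 lowest, with others named for contrast after their values were seen. Alternatives were other normalizations, floors, filters, covariates, sample sets and weights, and array by array omission.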

Additional observations from a re-analysis of the deposited data

How the results depend on the processing

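Over the alternatives, the values of the 5 probe sets kept direction and side of the threshold in 321 cases, changed direction in 12, gained a call in 11 and lost one in 1; with 1 array left out the counts were 263 kept, 10 reversed and 2 lost. The count of probe sets called for genotype (2) was 1 with quantile normalization, median centring, a 60th percentile filter or no covariate, 0 with no filter, age, the Gapdh ratio or no male null arrays, 26 among B4 animals and 1741 with array weights; with 1 array left out it ran from 1 to 877, reaching 195 without wild-type 3 and 877 without wild-type 5. The count for sex (0) was 2 with a 20th percentile floor or with 16 added, 3 with no filter, 10 among B4 animals, 1232 with array weights and 0 to 30 with 1 array left out (30 without wild-type 5). The interaction count (1187) was 0 with the Gapdh ratio, 644 among B4 animals and 461 to 1406 with 1 array left out. The male count (2433) was 0 with the Gapdh ratio and 1217 to 2486 with 1 array left out, lowest without null 1 (1339) or null 2 (1217), where the lone male null array is assumed to vary like the rest. The female count (0) was 1 with median centring, a 60th percentile filter, B4 animals or array weights and 0 to 4 with 1 array left out (4 without wild-type 3). For genotype, Rgs5 103294_at reversed to -0.29 with the Gapdh ratio and to -0.086 without the male null arrays. Acta2 reversed to 0.33 and 0.22 under the same settings and ran from -0.16 to 0.037 with 1 array left out. For sex, Pdgfrb reversed to 0.036 (quantile), 0.005 (median centring) and 0.019 (no male null arrays). Acta2 reversed there to -0.002 (age), -0.17 (Gapdh ratio) and -0.23 (no male null arrays). It ran from -0.063 to 0.14 with 1 array left out. For the interaction, Tagln ran from -0.074 to 0.31 with 1 array left out. In males, the Gapdh ratio moved Rgs5 103294_at from the called 0.87 to -0.068 and Acta2 from -0.29 to 0.23. In females, Rgs5 103294_at ran from -0.19 to 0.069 with 1 array left out. With the Gapdh ratio the male difference of Rgs5 96180_at was 2.15 and no longer called (adjusted p = 0.86), and without null 2 it was 3.57 (adjusted p = 0.057). Array weights also added calls for Rgs5 103294_at by genotype (0.59, adjusted p = 0.0487) and by sex (-0.90, adjusted p = 0.0133). The correlation of Rgs5 and Pdgfrb was 0.35 over 11 arrays and 0.05 in residuals, that of Rgs5 and Tagln -0.04 after median centring, and that of Pdgfrb and Tagln -0.09 after median centring and -0.02 in residuals. The Tagln genotype difference stayed between 0.44 and 0.70 under the other alternatives and between 0.54 and 0.70 with 1 array left out. The within-sex alternatives were chosen after the data were seen. The interaction could not be fitted without the male null arrays. For each change the cause was not tested. No paired analysis was possible because the replicate numbers were given in accession order and pair no animals.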
